A study of Sus scrofa with 9 samples.

Results

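The transcripts of PHGDH, PSAT1 and PSPH, the enzymes that make serine, were followed in the back muscle of 9 pigs fed different amounts of lysine. The probe sets were taken by gene symbol: each whose single symbol was PHGDH, PSAT1 or PSPH, which gave 3 probe sets, 1 per gene, out of 27558 probe sets and 12361 named genes. None of them had values identical to those of another probe set. The genes were chosen by their log2 values in the lysine-deficient pigs against the others, which were already known to be high. These comparisons are therefore given as a description, without a test.

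Male finishing pigs of about 95 kg were kept for 5 weeks on diets that differed in lysine. Pigs 1, 2 and 3 ate the lysine-deficient diet, pigs 5, 6 and 7 the lysine-adequate diet and pigs 9, 10 and 11 the lysine-excess diet. Longissimus dorsi, the long back muscle, was sampled between ribs 10 and 12 at slaughter, and total RNA from each pig was hybridised to 1 whole-transcript array. The labels name no genotype, breed or castration status and no batch, and the adequate diet is the one the other diets are set against. Values are the authors' log2 expression values, so a difference of 1 is a 2-fold change. Each sample is a piece of whole muscle, in which more RNA per cell and more cells of a type that expresses a gene cannot be told apart.

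Serine is an amino acid that mammals can make, whereas lysine must come from the diet. PHGDH, phosphoglycerate dehydrogenase, takes 3-phosphoglycerate out of glycolysis by oxidising it, PSAT1, phosphoserine aminotransferase, adds an amino group taken from glutamate, and PSPH, phosphoserine phosphatase, removes the phosphate to release serine. Serine then supplies glycine, folate-bound one-carbon units, cysteine, phosphatidylserine and sphingolipids. In cultured human and mouse cells short of an amino acid, the transcription factor ATF4 is known to raise transcripts of this pathway together with ASNS, asparagine synthetase.

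The arrays of 8 pigs correlated at 0.977 to 0.992 with each other, and the array of excess pig 11 stood apart at 0.904 to 0.956. The enzymes' differences and the pathway counts that involve the excess pigs are therefore also given without it, as are marker sums whose order it changes, whereas correlations over the 6 pigs outside the deficient group include it. By array quality weights, tried as an alternative, excess pig 10 was lowest (0.19), then excess pigs 11 (0.22) and 9 (0.68). The arrays of the other diets had weights of 0.9 to 2.46. With 3 arrays per diet, their number limits the precision of every value. Of the myofibre markers 3 of 10 listed genes were measured, and all 3 were bright, at mean levels of 12.56 to 12.89. Markers of red blood cells (3 of 4 measured) and of dividing cells (2 of 7) all had mean levels below the median of all probe sets, 5.07.

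PHGDH and PSAT1 differed by more between the lysine-deficient and the adequate pigs, in the upward direction, than any other probe set on the array: PSAT1 ranked 1 and PHGDH ranked 2 of 27558 by the log2 difference. PHGDH was 4.46-fold and PSAT1 4.84-fold higher in the deficient pigs, whereas PSPH was 1.25-fold higher and ranked 715. By the difference of deficient from excess pigs, PHGDH ranked 4, PSAT1 ranked 5 and PSPH ranked 1196. In excess against adequate pigs none of the 3 enzymes passed the test. The level of each enzyme in each pig is plotted by diet.

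**Figure D1:**
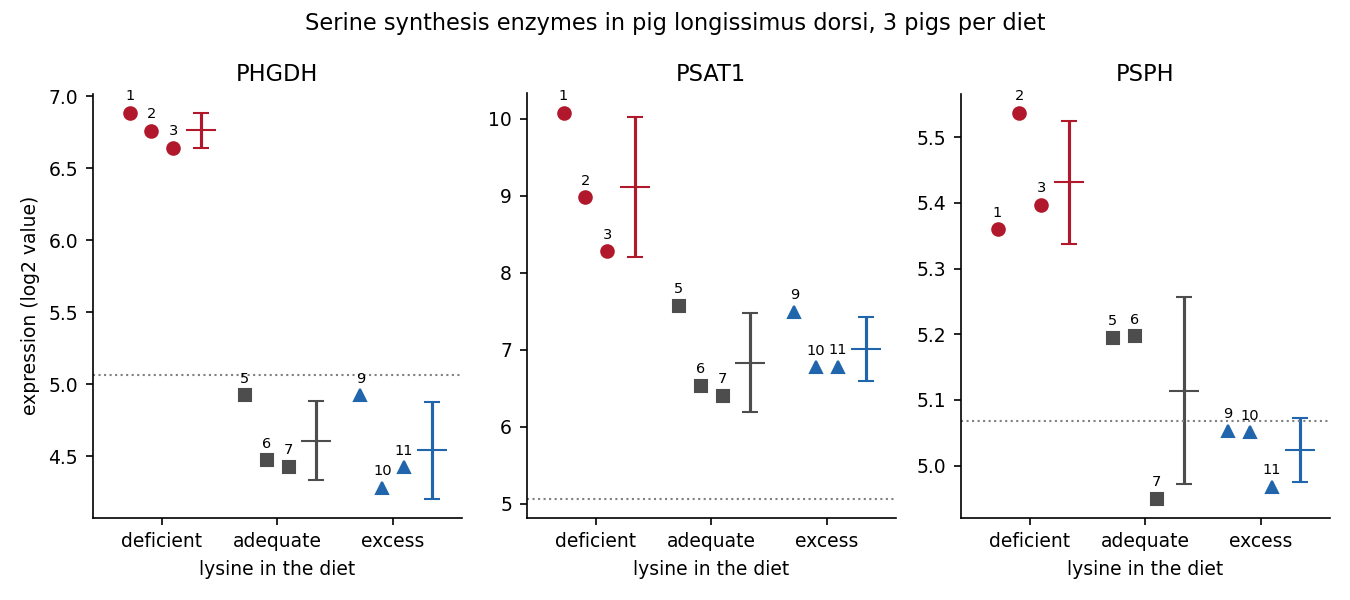
Log2 expression of PHGDH, PSAT1 and PSPH (vertical axes, a separate range for each gene) in each pig by lysine supply. Points are pigs with their numbers, the bar beside them is the mean with its SD over 3 pigs, and the dotted line is the median level of all probe sets, 5.07. All 3 deficient pigs lie above the other 6 in each gene, by 1.72 in PHGDH, 0.71 in PSAT1 and 0.16 in PSPH.

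PHGDH, which catalyses the committed step, had log2 values of 6.89, 6.76 and 6.64 in the deficient pigs 1, 2 and 3, of 4.92, 4.47 and 4.43 in the adequate pigs 5, 6 and 7, and of 4.92, 4.28 and 4.43 in the excess pigs 9, 10 and 11. The deficient pigs lay close together and far above all others, and the ranges of the adequate and excess pigs overlapped. Excess pig 10 lay below every adequate pig, and excess pig 11 was level with adequate pig 7 (both 4.43). The mean was 6.76 ± 0.12 in deficient pigs, 4.61 ± 0.27 in adequate pigs and 4.54 ± 0.34 in excess pigs (SD, n = 3 each). Deficient minus adequate was 2.16 ± 0.19 (SE of the fit across all probe sets) and deficient minus excess was 2.22 ± 0.19, or 2.16 without excess pig 11. Its mean lay at percentile 74.1 of all probe sets in deficient pigs, 37.4 in adequate pigs and 30.7 in excess pigs, so that PHGDH was dim outside the deficient group. No background level was available, so the folds of PHGDH are not exact.

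The 4.92 of adequate pig 5 and the 4.92 of excess pig 9 were the same deposited value to the last digit. Such ties are common in this table: these 2 arrays shared the exact value at 4.07% of probe sets, and between 1.63% and 4.83% of probe sets were tied in each pair of arrays.

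PSAT1, the aminotransferase, had values of 10.07, 8.98 and 8.28 in the deficient pigs 1, 2 and 3, of 7.57, 6.53 and 6.40 in the adequate pigs 5, 6 and 7, and of 7.49, 6.77 and 6.78 in the excess pigs 9, 10 and 11. The deficient pigs again lay above all others, but they were spread out, with pig 1 highest and pig 3 only 0.71 above adequate pig 5. The mean was 9.11 ± 0.90 in deficient pigs, 6.83 ± 0.64 in adequate pigs and 7.01 ± 0.41 in excess pigs (SD, n = 3 each). Deficient minus adequate was 2.28 ± 0.50 (SE) and deficient minus excess was 2.10 ± 0.50, or 1.98 without excess pig 11. The spread of PSAT1 among pigs of a diet was among the larger ones on the array. Its pooled SD within diets was 0.68, at percentile 96.2 of all probe sets, whereas that of PHGDH was 0.26, at percentile 70.6.

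PSPH, the phosphatase that completes the pathway, had values of 5.36, 5.54 and 5.40 in the deficient pigs 1, 2 and 3, of 5.19, 5.20 and 4.95 in the adequate pigs 5, 6 and 7, and of 5.05, 5.05 and 4.97 in the excess pigs 9, 10 and 11. The deficient pigs were highest here as well, by a much smaller margin, and adequate pig 7 was the lowest of all. The mean was 5.43 ± 0.09 in deficient pigs, 5.11 ± 0.14 in adequate pigs and 5.02 ± 0.05 in excess pigs (SD, n = 3 each). Deficient minus adequate was 0.32 ± 0.09 (SE) and deficient minus excess was 0.41 ± 0.09, or 0.38 without excess pig 11. The pooled SD of PSPH within diets was 0.10, at percentile 25.8 of all probe sets. The PSPH values of all 9 pigs lay between 4.95 and 5.54, around the median of all probe sets, 5.07, and signal over background was not tested.

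All 3 enzymes thus had every deficient pig above every adequate pig and above every excess pig. Over all probe sets the deficient pigs lay wholly above the adequate pigs at 3.77%, wholly above the excess pigs at 4.28%, and above all 6 others at 1.19%. Because these values served to choose the genes, nothing is read from that comparison. Among the probe sets with the deficient pigs above all 6 others, PHGDH and PSAT1 were the 2 with a log2 difference over 2 against both diets (0.00726% of all probe sets, at a limit set after the values were seen). The named gene next in order was UCHL1, a ubiquitin hydrolase, at 1.98 against adequate and 2.43 against excess pigs (2.25 without excess pig 11).

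The comparison of excess with adequate pigs asks whether lysine above the adequate supply went with a different level of the enzymes, and it did not serve to choose them. It shares the adequate pigs with the deficient against adequate comparison and the excess pigs with the deficient against excess comparison. Both of those served to choose the genes, so this comparison is not independent of the choice. PHGDH differed by -0.06 ± 0.19 (excess minus adequate, SE, n = 3 pigs each, 95% confidence interval -0.51 to 0.39, limma adjusted p = 0.906). PSAT1 differed by 0.18 ± 0.50 (95% confidence interval -0.97 to 1.33, limma adjusted p = 0.897). PSPH differed by -0.09 ± 0.09 (95% confidence interval -0.30 to 0.12, limma adjusted p = 0.760). None of the 3 passed, the excess and adequate pigs overlapped in each, and the signs of PHGDH and PSAT1 turned without some single pigs. As folds, the intervals allow excess over adequate ratios of 0.70 to 1.31 for PHGDH, 0.51 to 2.52 for PSAT1 and 0.81 to 1.08 for PSPH. The interval of PSAT1 thus includes a 2-fold change in the excess pigs. Without excess pig 11 the differences were -0.0051, 0.30 and -0.06. In this comparison 0% of all probe sets passed limma's adjusted p of 0.05 (0 of 27558), and 981 had an unadjusted p below 0.05, or 3.56%. Without moderation of the variance 1 unnamed probe set passed, at a difference of -0.02.

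The enzymes did not share 1 order among the pigs. Within the deficient group, PHGDH and PSAT1 were both highest in pig 1, then pig 2, then pig 3, whereas PSPH was highest in pig 2 and lowest in pig 1. Among the other 6 pigs, adequate pig 5 and excess pig 9 had the highest PHGDH and also the highest PSAT1, while PSPH was highest in adequate pigs 5 and 6. Over these 6 pigs, Pearson's r of PHGDH with PSAT1 was 0.891 (exact permutation p = 0.1, adjusted p = 0.3 over 3 pairs, two-sided) and Spearman's rho was 0.522 (exact permutation p = 0.3, adjusted p = 0.45). Pigs 5 and 9 lay farthest from the median PHGDH of these 6 pigs, and without them r was -0.562 over the 4 pigs left. Since these 4 span only 4.28 to 4.47 in PHGDH, nothing is concluded from that value. PHGDH with PSPH gave r = 0.427 (exact permutation p = 0.411, adjusted p = 0.417) and rho = 0.580 (exact permutation p = 0.244, adjusted p = 0.45), with r = 0.209 without the same 2 pigs. PSAT1 with PSPH gave r = 0.384 (exact permutation p = 0.417, adjusted p = 0.417) and rho = 0.371 (exact permutation p = 0.497, adjusted p = 0.497), with r = -0.0698 without them. No pair passed. Over all 9 pigs the deficient pigs form a cluster apart from the other 6, so no pooled test is given. The pig by pig plots of the enzymes show this.

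**Figure D2:**
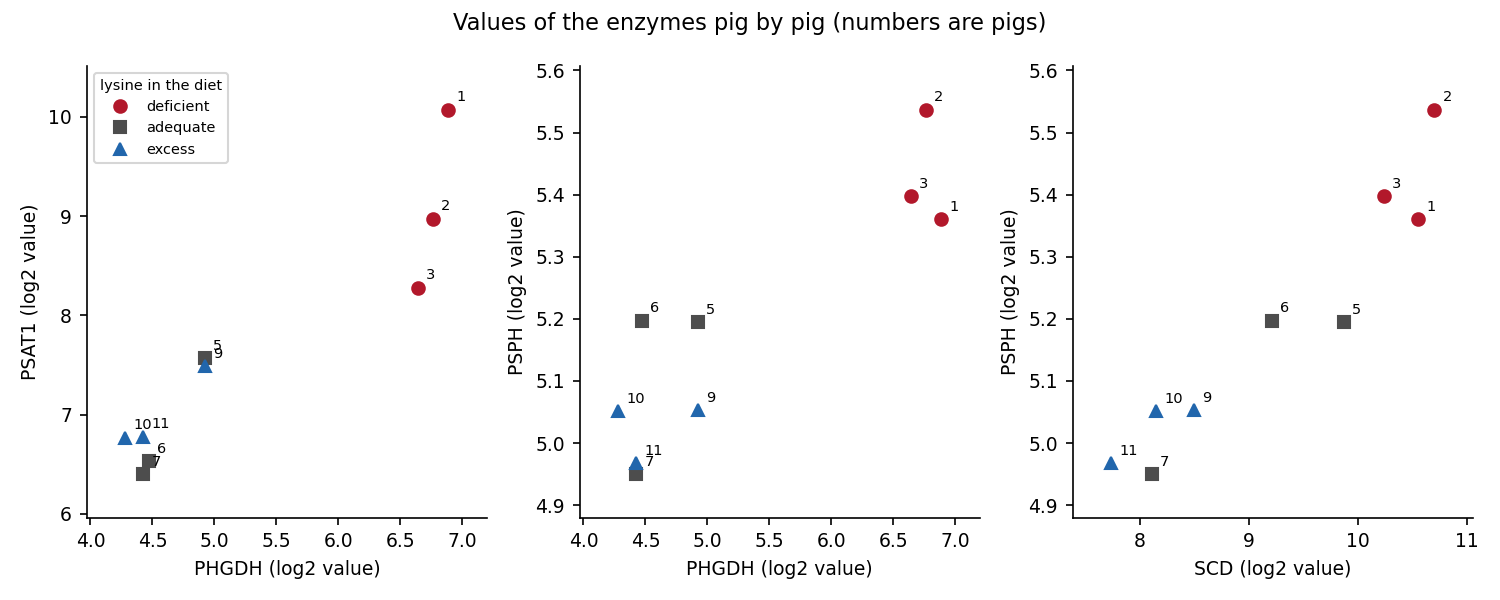
Log2 values of PSAT1 against PHGDH, PSPH against PHGDH, and PSPH against SCD in each of the 9 pigs; symbols give the diet and numbers the pig. Deficient pigs form a separate cloud at the upper right of each panel, and adequate pig 5 and excess pig 9 stand together above the other 4 in PHGDH and PSAT1.

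The genes whose pattern over the 9 pigs was most like that of each enzyme were found by Pearson's correlation of log2 values among all probe sets with 1 gene symbol. All of these correlations are over the same 9 arrays and largely follow the step between deficient and other pigs, so they are a description. PHGDH was closest to FUT1, a fucosyltransferase (r = 0.956), PSAT1 (0.934), EIF2S2, the beta subunit of translation initiation factor eIF2 (0.928), ATP6V1G2, a subunit of the vacuolar proton pump (0.907), and LOC100153496 (0.900). PSAT1 was closest to the stress-responsive transcription factor ATF5 (0.967), PCK2, the mitochondrial phosphoenolpyruvate carboxykinase (0.955), PHGDH (0.934), FUT1 (0.933) and ARG2, an arginase (0.919). PSPH had other neighbours: SCD, which makes monounsaturated fatty acids (0.954), MROH6 (0.951), the transcription factor ZIC1 (0.949), THRSP, a regulator of fat synthesis (0.947), and THAP5 (0.930). Its rank among the genes most like PSAT1 was 66, and its rank among those most like PHGDH was 7.

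The top places differed in how far they rested on single pigs. With each of the 9 pigs left out in turn, ATF5 and PCK2 stayed among the 5 genes most like PSAT1 in 9 of 9 cases, and SCD among those most like PSPH in 9 of 9. FUT1 and PSAT1 stayed with PHGDH in 7 of 9 cases each, ZIC1 with PSPH in 7, PHGDH and FUT1 with PSAT1 in 6 each, and MROH6 with PSPH in 5. The other 6 places were less stable: EIF2S2 stayed with PHGDH in 3 cases, ATP6V1G2 in 2 and LOC100153496 in 1, ARG2 with PSAT1 in 2, and THRSP with PSPH in 3 and THAP5 in 2. The worst ranks among them were 42 for LOC100153496, 38 for ATP6V1G2 and 24 for ARG2. PCK2, which turns oxaloacetate into the glycolytic intermediate phosphoenolpyruvate, had values of 5.81, 5.13 and 5.15 in deficient pigs, of 4.75, 4.48 and 4.49 in adequate pigs, and of 4.61, 4.60 and 4.74 in excess pigs. Like PSAT1 it was highest in deficient pig 1. SCD had values of 10.55, 10.70 and 10.24 in deficient pigs, of 9.87, 9.21 and 8.11 in adequate pigs, and of 8.50, 8.15 and 7.74 in excess pigs. SCD shared with PSPH a high deficient pig 2 and a low adequate pig 7. Over the 6 pigs outside the deficient group, which also served to pick these genes, the 5 genes most like each enzyme correlated with PHGDH at -0.001 (ATP6V1G2) to 0.891 (PSAT1), with PSAT1 at 0.649 to 0.960 and with PSPH at 0.858 to 0.921. The scaled values of the enzymes and their nearest genes are drawn pig by pig.

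**Figure D3:**
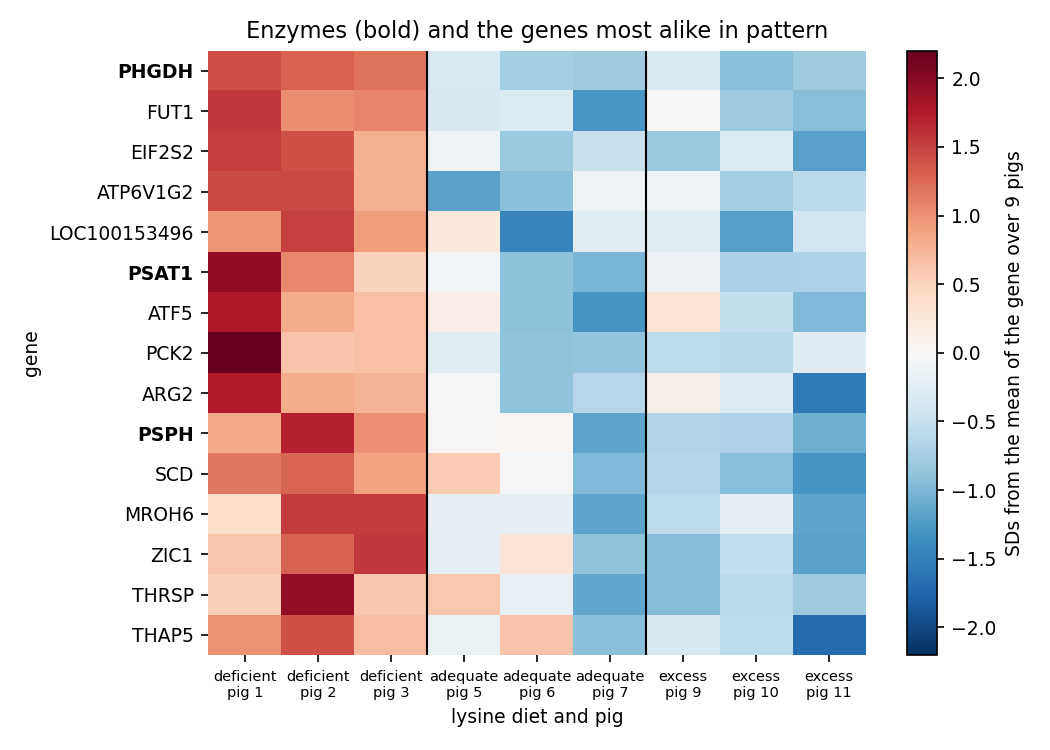
Scaled log2 values (colour, in SDs from the mean of each gene over 9 pigs) of the 3 enzymes, in bold, and the genes most like each, in 9 pigs ordered by diet. Every row has its highest mean in the deficient pigs; PSAT1, ATF5, PCK2 and ARG2 peak in pig 1, and PSPH, SCD and THRSP peak in pig 2.

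Genes of fat cells were also higher in the deficient pigs, though none passed the adjusted threshold. Of 7 listed adipocyte markers 5 were measured (PLIN1, LEP, CIDEC, CFD and THRSP). All 5, and 52.9% of all probe sets, were higher in deficient than in adequate pigs. The median log2 difference of the 5 markers was 0.43. Their summed signal, on the linear scale, ran from 632 to 802 in deficient pigs, from 378 to 612 in adequate pigs and from 353 to 368 in excess pigs. The deficient pigs lay above all others on this sum, and the excess pigs below every adequate pig, also without excess pig 11. Bright genes weigh most in such a sum. Taken singly, CIDEC had its deficient pigs wholly above the adequate pigs and the other 4 overlapped, and the excess pigs lay wholly below the adequate pigs in 1 of the 5. Over all probe sets these shares were 3.77% and 3.84%. The deficient pigs lay wholly above the excess pigs in 4 of the 5, against 4.28% of all probe sets. The marker lists, too, were chosen with earlier results of these pigs known. Fibroblast markers (5 of 6 measured) summed to 10259 to 11068 in deficient pigs, 11691 to 14360 in adequate pigs and 8778 to 11163 in excess pigs. The deficient pigs were below the adequate pigs and within the range of the excess pigs on this sum, but below both other excess pigs (11163 and 11148) without excess pig 11. The 3 myofibre markers summed to 17922 to 20183 in deficient pigs, 18395 to 22160 in adequate pigs and 20753 to 22341 in excess pigs, so that deficient pigs lay below excess pigs. Schwann and nerve markers (2 of 6 measured) summed to 195 to 241 in deficient pigs, 132 to 278 in adequate pigs and 150 to 222 in excess pigs, with the ranges overlapping. Endothelial markers (4 of 5 measured) summed to 832 to 1048 in deficient pigs, 760 to 973 in adequate pigs and 833 to 1197 in excess pigs. Macrophage markers (4 of 6) summed to 337 to 667, 435 to 510 and 255 to 596 in the same order, and T cell markers (5 of 5) to 119 to 130, 124 to 128 and 122 to 129. The 1 measured satellite cell marker of 3 ran from 46 to 59 in deficient pigs, 44 to 46 in adequate pigs and 38 to 55 in excess pigs, or 38 to 41 without excess pig 11, below every deficient pig. With all 9 pigs, the deficient pigs overlapped on the endothelial, macrophage, T cell and satellite cell sums with the other 6, and the highest pig was a deficient one for the macrophage (pig 1), T cell (pig 1) and satellite cell (pig 2) markers. The part of these markers in the enzyme values was not tested.

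In deficient against adequate pigs the genes around the 3 enzymes were split almost evenly between higher and lower values. Of 138 genes in 9 lists around serine, 92 were measured, and 44 of them were higher and 48 lower in deficient than in adequate pigs. Their median log2 difference was -0.005, against 0.007 over all probe sets, of which 52.9% were higher. None passed limma's adjusted p of 0.05, as for all probe sets (0% passed, and 1.85%, or 511, had an unadjusted p below 0.05). At an unadjusted p below 0.05 there were 3 higher genes and 1 lower gene of the 92, against 0.842% and 1.01% of all probe sets. The deficient pigs lay wholly above the adequate pigs in 8 of the 92, or 8.7%, against 3.77% of all probe sets, and wholly below in 2, or 2.17%, against 3.07%. Over all named genes these shares were 4.09% and 3.17%. All 9 lists were chosen with earlier results of these pigs known. Nothing is therefore read from the shares of the lists, here or below. In the excess against adequate comparison 30 of the 92 were higher and 62 lower, but 45 and 47 without excess pig 11. With all 9 pigs 50.2% of all probe sets and 45.5% of named genes were higher in this comparison. There 0 of the 92 passed by limma and 0 had an unadjusted p below 0.05. The excess pigs lay wholly above the adequate pigs in 0 of the 92 and wholly below in 1 (OAT, ornithine aminotransferase), against 3.2% and 3.84% of all probe sets. Without excess pig 11 the other 2 excess pigs lay wholly above in 2 and wholly below in 3, against 6.63% and 6.36% of all probe sets, and still 0 of the 92 had an unadjusted p below 0.05, against 1.18% higher and 1.26% lower over all probe sets. In deficient against excess pigs 0 of the 92 passed by limma, 8 had an unadjusted p below 0.05, all higher, and 59 were higher, with a median of 0.06. Over all probe sets 0% passed there too, and 4.08%, or 1124, had an unadjusted p below 0.05, 2.84% higher and 1.23% lower. Of all probe sets 50% were higher in deficient than in excess pigs, and of named genes 53.9%. The deficient pigs lay wholly above the excess pigs in 11 of the 92, or 12.0%, against 4.28% of all probe sets, and wholly below in 3, against 2.19%. Over all named genes these shares were 5.06% and 1.96%. Without excess pig 11, 51 of the 92 were higher than in excess pigs, with a median of 0.016. At an unadjusted p below 0.05 there were then 3 higher genes and 1 lower gene, against 2.09% and 1.62% of all probe sets, and 0 passed (0% of all probe sets). The deficient pigs lay wholly above the other 2 excess pigs in 11, or 12.0%, against 7.13% of all probe sets, and wholly below in 6, or 6.52%, against 6.46%. The log2 differences of single genes are drawn list by list.

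**Figure D4:**
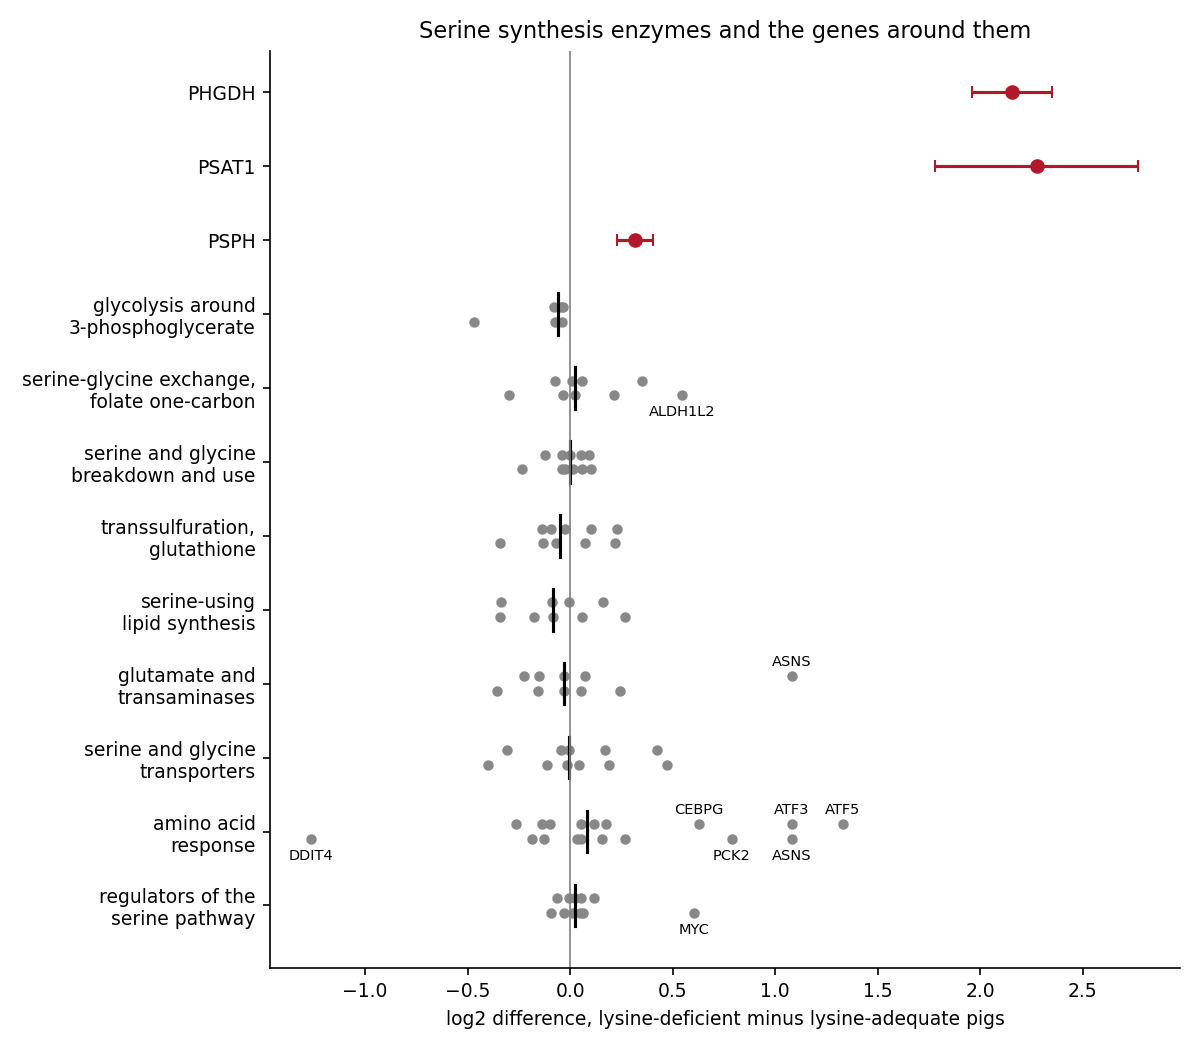
Log2 difference, deficient minus adequate pigs, for the 3 enzymes (red, with SE, n = 3 pigs per diet) and for each measured gene of 9 lists around serine (grey points; black bars are list medians, and genes beyond 0.5 either way are named). PHGDH and PSAT1 lie beyond 2, the list medians run from -0.083 to 0.083, and no gene passed the adjusted threshold.

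Glycolysis, where the substrate of PHGDH arises, differed little. All 6 measured genes of 9 around 3-phosphoglycerate were lower in deficient than in adequate pigs, with a median of -0.06, and none passed. PGK1, phosphoglycerate kinase, which makes 3-phosphoglycerate, differed by -0.07 ± 0.09 (SE, n = 3 pigs each, here and below), PGAM2, the muscle phosphoglycerate mutase, which takes it onward, by -0.05 ± 0.06, and PKM, pyruvate kinase, by -0.08 ± 0.06. ENO1, the enolase of most tissues, differed by -0.47 ± 0.36.

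Of the enzymes that pass serine carbon to folates, 9 of 18 listed were measured, 6 higher and 3 lower with a median of 0.02. ALDH1L2, the mitochondrial formyltetrahydrofolate dehydrogenase, differed by 0.55 ± 0.28 and had its deficient pigs wholly above the adequate ones. MTHFD2, the mitochondrial methylenetetrahydrofolate dehydrogenase, differed by 0.35 ± 0.26, but by 0.03 without deficient pig 1. SHMT2, which splits serine into glycine and a one-carbon unit in mitochondria, differed by 0.21 ± 0.31, by 0.08 without deficient pig 1 and by 0.33 without adequate pig 5. MTHFD1, the cytosolic enzyme, differed by -0.30 ± 0.37, by 0.13 without deficient pig 1 and by -0.55 without deficient pig 2. The other 5 measured genes, MTHFD2L, MTHFD1L, MTFMT, SLC25A32 and ATIC, lay between -0.07 and 0.06. SHMT1 was not analysed here.

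Serine and glycine breakdown and use (11 of 19 measured, 5 higher and 6 lower) stayed within -0.24 and 0.10. SDS, serine dehydratase, differed by 0.01 ± 0.05 at a mean level of 4.30 in adequate pigs, below the median of all probe sets. DLD, a subunit shared by the glycine cleavage system and other dehydrogenases, differed by 0.10 ± 0.18 and GNMT, which methylates glycine, by -0.12 ± 0.10. ALAS1, which joins glycine to succinyl-CoA for haem, differed by -0.24 ± 0.19 on its brighter probe set and by 0.00 on the other. GLDC was not analysed here.

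The routes from serine to cysteine and lipids were likewise mixed. In the list of transsulfuration, methionine cycle and glutathione genes (10 of 14 measured) 4 were higher and 6 lower. CTH, which releases cysteine, differed by -0.34 ± 0.31, by -0.66 without deficient pig 3 and by -0.09 without adequate pig 6. GCLC, the catalytic subunit of the rate-limiting enzyme of glutathione synthesis, differed by 0.23 ± 0.15 and MTRR, methionine synthase reductase, by 0.22 ± 0.23. CBS was not analysed here. Of the lipid genes that use serine (9 of 13 measured) 3 were higher and 6 lower. SPTLC2, a subunit of the enzyme that starts sphingolipid synthesis, differed by -0.34 ± 0.25, PISD, which makes phosphatidylethanolamine from phosphatidylserine, by -0.34 ± 0.36 and SERINC5, a serine incorporator family protein, by 0.27 ± 0.37.

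PSAT1 consumes glutamate and returns 2-oxoglutarate, and the genes of that exchange (10 of 12 measured, 4 higher and 6 lower) had a median of -0.03. GLUD1, glutamate dehydrogenase, differed by -0.36 ± 0.15, its values being 8.90, 8.68 and 9.32 in deficient pigs, against 9.25, 9.36 and 9.36 in adequate pigs. Deficient pigs 1 and 2 lay below all adequate pigs, and pig 3 among them. GPT2, the mitochondrial alanine aminotransferase, differed by 0.24 ± 0.12 at a dim level, and by 0.11 without deficient pig 1. Of carriers of serine and glycine (11 of 19 measured, 5 higher and 6 lower), SLC1A5, a carrier of small neutral amino acids and glutamine, differed by 0.42 ± 0.28, SLC38A2, a sodium-coupled carrier, by 0.47 ± 0.30 (0.48 on its other probe set), and SLC1A4, a serine and alanine carrier, by 0.19 ± 0.44. SLC7A8, a light chain of amino acid exchangers, differed by -0.40 ± 0.38.

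In the amino acid response list (18 of 25 measured, 12 higher and 6 lower, median 0.08), which was chosen with earlier results of these pigs known, none passed. Against excess pigs 17 of the 18 were higher, with a median of 0.16, and 13 of 18, with a median of 0.17, without excess pig 11. Beside these counts, 50% of all probe sets and 53.9% of named genes were higher, and 14001 of 27558 probe sets without excess pig 11. ASNS, ATF5 and CEBPG, a partner of ATF4, differed by 1.08 ± 0.43, 1.33 ± 0.36 and 0.63 ± 0.33, and the ATF4 transcript by 0.05 ± 0.05. PCK2 differed by 0.79 ± 0.18. DDIT4, a stress-induced inhibitor of mTORC1, had a lower value, -1.26 ± 0.75, and -0.68 without adequate pig 6. The other lower genes of this list, CEBPB, DDIT3, CHAC1, EIF2AK1 and PPP1R15A, differed by -0.26 to -0.10. ATF3 differed by 1.08 ± 0.93, with overlap between the pigs. Besides the enzymes, 5 of the 92 pathway genes had the deficient pigs above all 6 others, or 5.43% against 1.19% of all probe sets: ASNS, ATF5, CEBPG, PCK2 and GCLC. Since the lists were chosen with earlier results known, nothing is read from this share. Among 12 regulators linked to the serine pathway in human and mouse cells, 11 were measured, 7 higher and 4 lower with a median of 0.02. MYC, a growth-promoting transcription factor, differed by 0.60 ± 0.28, NFE2L2, the antioxidant transcription factor NRF2, by 0.12 ± 0.16 (but by -0.07 without adequate pig 7 and by 0.21 without adequate pig 6), and NFYB, a subunit of the CCAAT-binding factor, by -0.10 ± 0.06.

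Of the 32 list genes named by rule, none passed the adjusted threshold in deficient against adequate pigs, and 26 had a difference that moved by over 1.5 times, or turned its sign, when 1 of the 9 pigs was left out. ALDH1L2, GCLC, ASNS, ATF4, ATF5 and CEBPG did not. PHGDH, PSAT1 and PSPH did not either: their deficient minus adequate differences stayed between 2.07 and 2.31, between 1.79 and 2.69, and between 0.24 and 0.36. Leaving out an excess pig cannot change this difference, so only the deficient and adequate pigs bear on it. The enzymes were chosen on the same difference, so nothing is read from their steadiness beside the list genes.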

How the data were processed

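Expression was measured in 9 samples, 3 pigs per diet. The authors deposited 1 processed log2 value for each probe set and array. That the scale is log2 was inferred from the range, 3.10 to 14.30, and every fold rests on it. Per the submitters' processing notes, GCOS 1.2 and Partek were used, with no role given, and how background and normalization were handled is not given in the sources used here. Symbols came from the platform annotation, updated through Entrez IDs (13323 probe sets with 1 symbol, 357 with several, 13878 unnamed here). No coordinates are given, since the array's genome build was not stated. Promoters and sequences were not analysed here.

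With limma 3.58.1 (lmFit, eBayes; R 4.3.3), 1 mean per diet was estimated from the 9 arrays for 27558 probe sets. Tests were two-sided, and Benjamini-Hochberg adjustment ran over every probe set, at a threshold of 0.05. SE is from this model and SD from the 3 pigs of a diet. The fit was tested on simulated data. The members, the 9 pathway lists and the 10 marker lists were chosen with earlier results of these data known. For list genes the probe set with the highest mean was used. Named by rule were the 3 genes of largest difference in each pathway list (deficient against adequate), a set of key genes, and the 5 genes most like each enzyme. UCHL1, OAT, and PCK2 and GCLC among the separated genes, were named after their values were seen. So were CEBPB, DDIT3, CHAC1, EIF2AK1, PPP1R15A and ATF3 in the amino acid response list.

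The alternatives tried were a repeated quantile normalization, centring on array medians, fitting only the 6 arrays of a comparison, a robust prior with an intensity trend, array quality weights, array SD as a covariate, dropping the dimmest 25 percent, no moderation, probe sets with 1 symbol only, averaging a gene's probe sets, and leaving out each pig. Leaving out each pig in the ranking of similar genes, and excess pig 11 in the pathway counts and marker sums, were chosen after seeing the data.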

Additional observations from a re-analysis of the deposited data

How the results depend on the processing

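The deficient minus adequate and deficient minus excess differences of PHGDH, PSAT1 and PSPH kept their direction and moved by less than 1 SD in all 18 alternatives. Several of these cannot move a difference at all. They are the fit of 6 arrays, the robust prior, the dim filter, no moderation, 1-symbol probe sets and leaving out a pig of the diet not compared. The genes were also chosen on these differences, so their steadiness is a description. In excess against adequate pigs none of the 3 passed in any of the 18 alternatives. There the sign of PHGDH turned with array quality weights (0.11) and with array SD as a covariate (0.052); with 1 pig left out it ran from -0.253 to 0.094, and PSAT1 from -0.059 to 0.548. The cause was not tested. No probe set passed in the fit as reported, but PHGDH alone passed for deficient against adequate with array quality weights (1 probe set, limma adjusted p = 0.0123) and for deficient against excess among probe sets with 1 symbol (1, adjusted p = 0.0457, with fewer probe sets tested); these are not evidence, since PHGDH was chosen on those comparisons. A test without moderation passed 1 unnamed probe set, differing by -0.02 or 0.02, for excess against adequate and 1 for deficient against excess. The numbers at an unadjusted p below 0.05 were 511 for deficient and 981 for excess, each against adequate pigs, and 1124 between deficient and excess pigs. They were 941, 592 and 729 with the 6 arrays compared, 2207, 272 and 456 with array quality weights, and 233, 470 and 593 with 1-symbol probe sets, where fewer were tested. The covariate gave 1324 and 1724 for the deficient comparisons. With 1 pig left out they ran from 366 to 976 (794 without deficient pig 3, 976 without excess pig 11), from 584 to 4638 (584 without adequate pig 5, 589 without adequate pig 6, 4638 without excess pig 9) and from 839 to 3969 (3969 without excess pig 9). Pathway genes past the threshold stayed at 0 in every alternative. Of 513 list medians 30 moved by more than the spread among pigs, and of 1722 values of named list genes 18 did. No paired analysis was possible because the diets share no pig numbers. Background correction could not be varied from processed values, and the number of arrays and the unknown background limit what dim genes such as PHGDH can show.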
